A study of Mus musculus with 36 samples.

Results

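Genes of the airway and alveolar epithelium were followed through hypoxia and recovery on spotted arrays: Agr2, Muc1, Krt7, Dnah5, Lpcat1 and Slc34a2. The genes were chosen with earlier results of these data known. Their spots are those of the array platform that carry exactly 1 gene symbol from this list, which gave 11 spots of 15388 and 6 genes of 6971. Agr2 and Slc34a2 had 3 spots each, Lpcat1 had 2, and Muc1, Krt7 and Dnah5 had 1 each. Spots of a gene are given apart, under the platform's spot number, because those of Agr2 and of Slc34a2 did not behave alike.

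The lung epithelium lines the airways and the alveoli. In the airways, secretory cells make mucus and protective proteins and ciliated cells move that mucus towards the throat, whereas in the alveoli flat type I cells carry gas exchange and type II cells make and recycle surfactant. Agr2 encodes a protein disulfide isomerase of the endoplasmic reticulum that mucus-making cells need, Muc1 a mucin fixed in the apical cell membrane, Krt7 a keratin of simple epithelia, and Dnah5 a heavy chain of the outer dynein arm that drives cilia. Lpcat1 encodes an acyltransferase that makes the saturated phosphatidylcholine of surfactant, and Slc34a2 the sodium phosphate cotransporter of the type II cell.

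The study compared whole lungs of BALB/c mice kept at 0.5 atm with lungs of control mice matched for time. Mice were exposed for 1, 3, 7, 14 or 21 days, and those of the recovery phase spent 21 days at low pressure and then 1, 3, 7 or 14 days at that of sea level (days 22, 24, 28 and 35 of the experiment). RNA of 5 exposed and of 5 control mice was pooled separately at each time point, and 4 arrays were made at each of the 9 time points, 20 in the hypoxia phase and 16 in recovery. An exposed and a control pool, each in its own dye, met on 1 slide, so every value is a log2 ratio for which 0 means equal signal in exposed and control lung. Positive ratios are read as higher in exposed lung. That reading is likely but not certain: it was taken from the protocol's order of samples and dyes, and no dye swap is recorded. In whole lung, a change in the number of cells of a type and a change in RNA per cell cannot be told apart.

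The arrays held 14186 to 15042 values each, and their SDs across spots lay between 0.17 and 0.52. Within a day, arrays 1 and 2, or 3 and 4, had a median Pearson r across spots of 0.71, against 0.30 between an array of either pair and one of the other, so means of each pair are given beside the results where they parted most. The labels describe the same pools of 5 mice for all 4 arrays of a day and name no separate ones, so n = 4 counts arrays and p-values over arrays reflect the spread of arrays alone, which may be technical. The single-day tests also count the 4 arrays as independent, so the likeness within pairs can make their p-values too small. Sftpc and Scgb1a1, which define type II and club cells, were not analysed here. Other epithelial markers had spots, described after the 6 genes, but a ratio gives no level, so they do not show how much epithelium the lungs held.

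The promoters of 4 genes are printed because Muc1 and spot 1144 of Lpcat1 followed each other most closely among spots of different genes, Krt7 had the largest difference between the phases and Agr2 the highest early ratio. Each sequence is the 250 bases before the annotated start site in RefSeq (GRCm38.p6), all on the plus strand: Agr2 at chr12:35992675-35992924, Muc1 at chr3:89228806-89229055, Krt7 at chr15:101412153-101412402 and Lpcat1 at chr13:73466981-73467230. Capitals mark matches, on either strand, to 4 motifs. ACGTG and also GCGTG are forms of the core that hypoxia-inducible factors bind, GGGCGG is the GC box and TATAAA is the TATA box.
Agr2: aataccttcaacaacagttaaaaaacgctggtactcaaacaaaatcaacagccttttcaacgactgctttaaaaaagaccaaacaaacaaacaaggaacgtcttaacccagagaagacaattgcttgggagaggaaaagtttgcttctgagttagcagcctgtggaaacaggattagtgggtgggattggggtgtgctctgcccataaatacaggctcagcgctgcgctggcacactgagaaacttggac
Muc1: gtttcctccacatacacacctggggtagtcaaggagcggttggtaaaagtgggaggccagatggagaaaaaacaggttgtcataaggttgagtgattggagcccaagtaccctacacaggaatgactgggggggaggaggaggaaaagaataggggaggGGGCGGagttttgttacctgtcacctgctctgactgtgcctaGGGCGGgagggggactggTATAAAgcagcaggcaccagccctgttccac
Krt7: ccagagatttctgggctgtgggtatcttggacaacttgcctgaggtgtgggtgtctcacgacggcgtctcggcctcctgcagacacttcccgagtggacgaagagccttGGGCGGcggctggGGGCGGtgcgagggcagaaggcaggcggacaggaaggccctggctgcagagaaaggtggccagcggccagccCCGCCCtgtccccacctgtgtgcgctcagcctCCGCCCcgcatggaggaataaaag
Lpcat1: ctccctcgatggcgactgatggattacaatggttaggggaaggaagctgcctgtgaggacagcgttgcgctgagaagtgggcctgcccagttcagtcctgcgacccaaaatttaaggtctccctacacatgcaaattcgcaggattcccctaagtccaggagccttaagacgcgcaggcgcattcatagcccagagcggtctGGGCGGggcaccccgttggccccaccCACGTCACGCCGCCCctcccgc

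The Agr2 window held no match to the 4 motifs. Muc1 held GGGCGG 2 times and TATAAA once, which begins at position -31 from the start, and Krt7 held GGGCGG 4 times. Lpcat1 held GGGCGG 2 times and each form of the hypoxia core once. In its last run of capitals both of these and a GC box lie side by side on the minus strand, and the GC box overlaps its neighbour by 1 base. Among 32851 mouse promoter windows of the same length, 16.6 percent held ACGTG, 28.2 percent GCGTG, 32.7 percent GGGCGG and 12.4 percent TATAAA. The windows of Slc34a2 (chr5:53049103-53049352) and Dnah5 (chr15:28203516-28203765, which lies inside the annotated span of the gene) each held GCGTG once and none of the other motifs. A match describes the letters of the window and is not a binding site. The part of each transcript that a spot covers was not used here.

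Over the hypoxia phase, 9 of the 11 spots differed from control lung, 6 higher and 3 lower. The mean of the 5 hypoxia days was tested in a limma fit of all 9 daily means, in which both phases share 1 spread. Benjamini-Hochberg adjustment was made over all spots, with a threshold of 0.05. Among all 14649 spots tested, 42.9 percent passed, 23.6 percent higher and 19.3 percent lower, and the median log2 ratio was 0.02, against 0.19 for the 11 spots. Since the genes were chosen with earlier results of these data known, counts and medians above those of all spots may follow from the choice. In recovery, 1 of 11 passed, lower, against 6.12 percent of all spots (2.05 percent higher and 4.08 percent lower). In the difference between hypoxia and recovery, 0 of 11 passed in limma, against 0.0341 percent of all spots, and 3 of 11 had an unadjusted p under 0.05. On single days of hypoxia, 6 of 11 passed at day 1, 4 higher and 2 lower (20.5 percent of all spots, 10.6 percent higher and 9.98 percent lower), and 7 at day 3, 5 higher and 2 lower (23.8, 12.8 and 11 percent of all spots). At day 7, 6 passed, 4 higher and 2 lower (37, 19.7 and 17.3 percent), at day 14, 6 passed, 5 higher and 1 lower (28.6, 15.1 and 13.5 percent), and at day 21, 3 passed, 2 higher and 1 lower (4.65, 2.14 and 2.51 percent). On single days of recovery, 0 of 11 passed at day 22 in limma, with 2 at an unadjusted p under 0.05 (1.53 percent of all spots passed, 0.756 percent higher and 0.77 percent lower), and 1 passed at day 24, lower (3.37 percent, 0.814 higher and 2.56 lower). At day 28, 3 passed, all lower (34.2 percent, 18.8 higher and 15.4 lower), and at day 35, 0 passed in limma, with 3 at an unadjusted p under 0.05 (2.98 percent, 1.79 higher and 1.19 lower). Of the 99 combinations of a spot and a day, 32 passed, 20 higher and 12 lower, against 17.3 percent over all spots. The higher calls all fell in the hypoxia phase, and the 3 calls at day 28 and the 1 at day 24 were lower. With replicate pairs as a random block, 23 of the combinations passed.

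**Figure D1:**
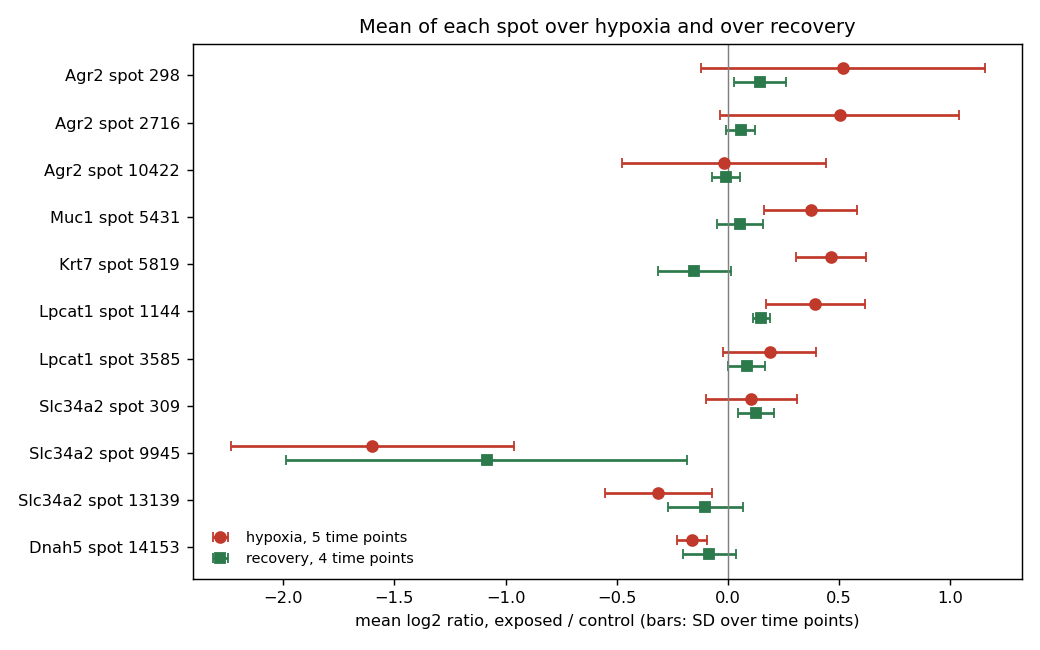
Mean log2 ratio (exposed over control, x axis) of each of the 11 spots over the hypoxia phase (red circles, 5 time points) and over recovery (green squares, 4 time points), with bars of SD over time points. Krt7 spot 5819 stands at 0.46 in hypoxia and at -0.15 in recovery, and Slc34a2 spot 9945 lies far below the other spots in both phases, at -1.60 and -1.09.

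Agr2 was higher after 1 day of hypoxia on all 3 of its spots, and after 3 days on 2 of them. On spot 298 the log2 ratios at day 1 were 1.34, 1.36, 1.89 and 1.68, and at day 3 they were 0.93, 0.79, 0.58 and 0.39. On spot 2716 they were 1.31, 0.92, 1.56 and 1.47 at day 1 and 0.89, 0.85 and 0.58 at day 3, where 1 array had no value. On each of these spots, every day 1 value lay above every value of any other day. The day 1 mean of spot 298 was 1.57 ± 0.27 (SD, n = 4), 2.97-fold (limma adjusted p = 1.9e-13), and it ranked 2 from the highest among 14901 spots with a day 1 mean. That of spot 2716 was 1.31 ± 0.28 (SD, n = 4), 2.48-fold (limma adjusted p = 9.7e-13), with rank 19.

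The third spot of Agr2 passed at day 1 alone. Spot 10422 had 0.65, 0.14, 0.87 and 1.10 at day 1, a mean of 0.69 ± 0.41 (SD, n = 4; limma adjusted p = 0.0099), and this call was lost without replicate 3 (0.63, adjusted p = 0.064) or without replicate 4 (0.55, adjusted p = 0.10). At day 7 its values were -0.66, -0.59, -0.04 and -0.24, and at day 14 they were -0.99, -0.74, -0.11 and 0.10. The day 14 mean of -0.43 did not pass (adjusted p = 0.089), but arrays 1 and 2 alone averaged -0.86 and passed as lower (limma adjusted p = 0.00017), as did the day without replicate 4 (-0.61, adjusted p = 0.045). From day 7 on, spots 298 and 2716 stayed between -0.19 and 0.44 on every array with a value. All of them had their highest daily mean at day 1.

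At day 3 spot 298 averaged 0.67 ± 0.23 (SD, n = 4; limma adjusted p = 3.5e-06) and spot 2716 averaged 0.77 ± 0.17 (SD, n = 3; limma adjusted p = 6.2e-07), whereas spot 10422 averaged 0.15 ± 0.49 (SD, n = 4; adjusted p = 0.65). Spot 2716 also passed at day 7, at 0.28 ± 0.10 (SD, n = 4; limma adjusted p = 0.0069), and did not without replicate 1 (0.27, adjusted p = 0.057). Daily means of spot 298 from day 7 to day 35 ran from 0.02 to 0.27 and those of spot 2716 from -0.01 to 0.28. Those of spot 10422 over the same days ran from -0.43 to 0.07.

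**Figure D2:**
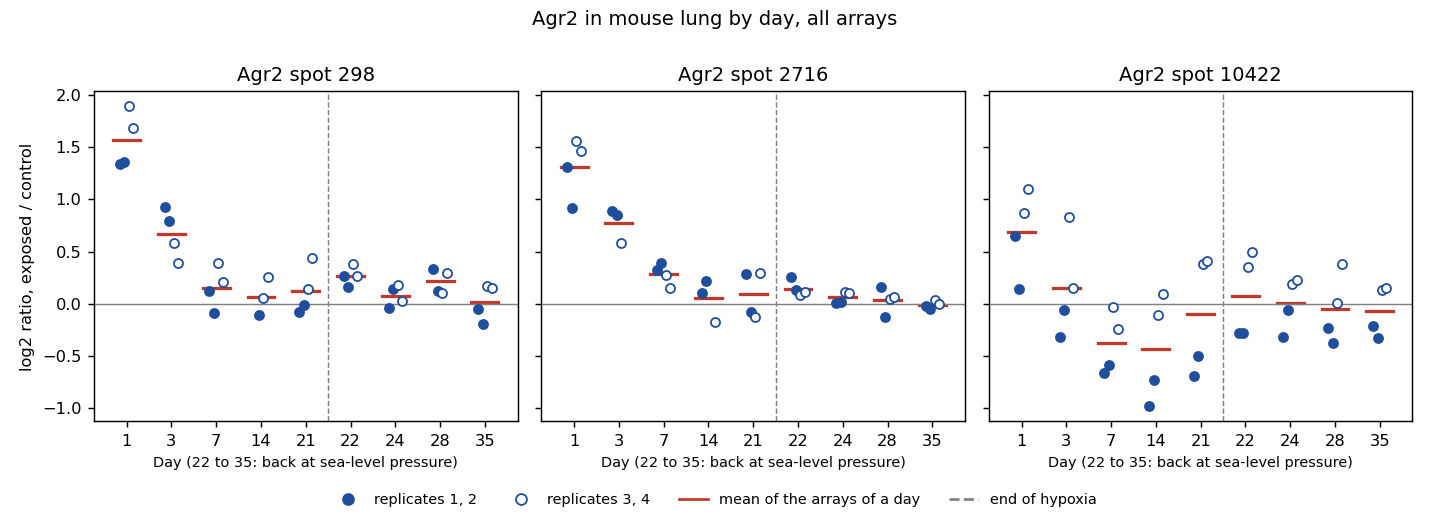
Log2 ratio (exposed over control, y axis) of the 3 Agr2 spots by day (x axis), with a point for each array (filled, replicates 1 and 2; open, replicates 3 and 4), a red line at the mean of each day and a dashed line at the end of hypoxia. All 3 spots have their highest mean at day 1 (1.57, 1.31 and 0.69), and on spot 10422 the filled points lie below the open ones at every day.

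Fitted against log2 of the days in hypoxia, Agr2 spot 2716 had a slope of -0.30 ± 0.03 log2 units per step of 1 in log2 day (SE, 5 daily means; limma adjusted p = 0.040). It was the 1 member spot that passed for this slope and the 1 of 14649 spots that did so, 0.00683 percent of all spots. The slope of spot 298 was -0.34 ± 0.05 (adjusted p = 0.26) and that of spot 10422 was -0.22 ± 0.05 (adjusted p = 1.00). The call for spot 2716 held in 7 of 21 other settings, and without day 1 the slope was -0.25 with an adjusted p of 1.00. For slopes over recovery, 0 of 11 spots passed in limma and 0 had an unadjusted p under 0.05, against 0 percent of all spots after adjustment and 182 at an unadjusted p under 0.05.

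Over the whole hypoxia phase, Agr2 spots 298 and 2716 averaged 0.52 ± 0.64 (limma adjusted p = 0.027) and 0.50 ± 0.54 (limma adjusted p = 0.014; SD over time points, n = 5 each). Without day 1 the means were 0.25 (limma adjusted p = 0.043) and 0.30 (limma adjusted p = 0.031). Without day 3 they were 0.48 and 0.43 and did not pass (adjusted p = 0.084 and 0.059), and spot 298 did not pass in replicates 1 and 2 alone (0.41, adjusted p = 0.078). Spot 10422 averaged -0.02 ± 0.46 (adjusted p = 0.93). Its sign turned with the replicate pair: arrays 1 and 2 averaged -0.38 (adjusted p = 0.039) and arrays 3 and 4 averaged 0.34 (adjusted p = 0.027). In recovery the 3 spots averaged 0.14, 0.06 and -0.01, and none passed (adjusted p = 0.63, 0.83 and 0.97), with spot 10422 again at opposite signs in arrays 1 and 2 (-0.26) and arrays 3 and 4 (0.24).

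Markers of some other cell types moved at day 1 beside Agr2. All 5 spots for the 3 measured genes of a 9-gene neutrophil list were higher that day: Ltf, which encodes lactoferrin, at 0.82, 0.54 and 0.56, Lcn2, which encodes lipocalin 2, at 0.53, and S100a9, a calcium-binding protein of neutrophils, at 0.31. Airway epithelium also makes lactoferrin and lipocalin 2. The Ltf spots had their highest daily mean at day 3 (1.29 to 1.76) and Lcn2 at day 7 (0.85), whereas S100a9, like Agr2, had its highest at day 1 and was at -2.63 at day 3. Of 9 erythroid spots, 8 were higher at day 1, with a median of 0.99, and 8 were also higher at days 3, 7, 14, 22 and 35, 5 at day 21 and 0 at day 24, while 8 were lower at day 28. Of 5 smooth muscle spots, 3 were higher at day 1 (median 0.35; the actin-binding Flna at 1.04 on 1 of its spots), and of 4 endothelial spots, 3 were higher and 1 lower (median 0.37). Of 13 fibroblast spots, 1 was higher and 3 were lower (median 0.08), and of 3 macrophage spots 1 was lower (median -0.17). The 1 spot of a squamous and large airway list was lower, and 0 of 3 mesothelial and 0 of 1 lymphocyte spots passed. Of all spots, 10.6 percent were higher that day and 9.98 percent lower. The part of these cells in the Agr2 ratios was not tested.

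Muc1 was higher from day 3 to day 14. The log2 ratios of spot 5431 were 0.60, 0.99, 0.23 and 0.34 at day 3, 0.67, 0.69, 0.34 and 0.22 at day 7, and 0.90, 0.46, 0.52 and 0.30 at day 14. All 12 values were positive and replicates 1 and 2 were mostly the higher ones. The daily means were 0.54 ± 0.34, 0.48 ± 0.24 and 0.55 ± 0.26 (SD, n = 4 each), with limma adjusted p of 0.00025, 0.00046 and 0.00017. At day 1 the mean was 0.14 (adjusted p = 0.41) and at day 21 it was 0.15 (adjusted p = 0.53), with arrays 1 and 2 at 0.32 and arrays 3 and 4 at -0.02.

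On the same days, 13 spots for 7 of 8 fibroblast genes had medians of 0.98, 0.79 and 0.82. Of these spots, 8, 8 and 9 were higher, from 4, 4 and 5 genes, and 3, 3 and 2 were lower. Among all spots, 12.8, 19.7 and 15.1 percent were higher and 11, 17.3 and 13.5 percent lower. At day 1 their median was 0.08, with 1 spot higher and 3 lower. At day 21 it was 0.48, with 8 spots higher and 2 lower. Markers of other cell types also moved on days 3, 7 and 14. Of 5 smooth muscle spots, 4, 3 and 2 were higher (4 were tested at day 7). Of 4 endothelial spots, 3, 2 and 3 were higher and 1 was lower each day. Of 5 neutrophil spots, 4, 4 and 0 were higher and 1, 0 and 2 lower. Of 9 erythroid spots, 8 were higher each day, and of 3 macrophage spots, 2, 2 and 3 were lower. The part of fibroblasts or of these other cells in the Muc1 and Lpcat1 ratios was not tested.

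Over hypoxia Muc1 averaged 0.37 ± 0.21, 1.29-fold (SD over time points, n = 5; limma adjusted p = 0.0014), with 18 of 20 arrays above 0. In recovery it averaged 0.06 ± 0.10 (SD over time points, n = 4; adjusted p = 0.64), and its arrays ran from -0.46 to 0.28 around a median of 0.11. The difference between hypoxia and recovery was 0.32 ± 0.10 (SE) and did not pass (limma adjusted p = 0.18). The hypoxia call held in 23 of 23 other settings, with means from 0.21 to 0.54.

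Krt7 was higher at every hypoxia day and at or below control in recovery. Spot 5819 had 0.36, 0.35, 0.78 and 0.15 at day 1, 0.49, 0.75, 0.15 and 0.57 at day 3, and 0.72, 0.85, 0.79 and 0.53 at day 7. At day 14 it had 0.42, 0.02, 0.42 and 0.37, and at day 21 it had 0.36, 0.61, 0.28 and 0.31. All 20 arrays of the phase were above 0, from 0.02 to 0.85. In recovery the values were -0.18, -0.14, 0.12 and 0.21 at day 22, 0.00, -0.47, 0.05 and 0.11 at day 24, -0.81, -0.35, 0.01 and -0.38 at day 28, and -0.42, -0.07, 0.15 and -0.26 at day 35. Of these 16 arrays, 6 were above 0.

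The daily means of Krt7 in hypoxia, 0.31 to 0.72, did not overlap those in recovery, -0.38 to 0.00. It was the 1 member spot of 11 with this separation, which 2.53 percent of all spots had in that direction. With hypoxia below recovery, 0 of 11 spots and 3.33 percent of all spots were separate. Each of the 5 hypoxia days passed, from day 7 (limma adjusted p = 7.8e-06) to day 21 (adjusted p = 0.041), and day 28 passed as lower (adjusted p = 0.0091). The calls at days 14 and 21 were each lost on leaving out any of 3 of the 4 replicate numbers, with adjusted p up to 0.15 and 0.21, that at day 1 without replicate 3 (0.29, adjusted p = 0.11), and that at day 28 without replicate 1 (-0.24, adjusted p = 0.25).

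Over hypoxia Krt7 averaged 0.46 ± 0.16, 1.38-fold (SD over time points, n = 5; limma adjusted p = 0.00035), and this call held in 23 of 23 other settings. In recovery it averaged -0.15 ± 0.17 (SD over time points, n = 4; adjusted p = 0.17), with arrays 1 and 2 at -0.31 and arrays 3 and 4 at 0.00. The difference between the phases, 0.62 ± 0.10 (SE), was the largest of the 11 spots and just missed the threshold (limma adjusted p = 0.058). It passed in 7 of 22 other settings, among them without replicate 4 (0.67, adjusted p = 0.040) and without day 21 (0.63, adjusted p = 0.043).

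Krt7 is also a gene of the mesothelium, the sheet that covers the lung, and 3 genes of a 7-gene mesothelial list were measured. Msln, which encodes mesothelin, had daily means of -0.13, 0.39, 0.48, 0.33 and 0.42 in hypoxia and 0.20, -0.33, -0.75 and -0.45 in recovery. Its phase means were 0.30 (adjusted p = 0.051) in hypoxia and -0.33 in recovery, and neither the Wt1 spot (0.10 in hypoxia) nor the Bnc1 spot (0.00) passed. In recovery 0 of these 3 spots passed, and 0 of 3 for the difference between the phases (6.12 and 0.0341 percent of all spots). On single days, 1 of the 3 passed as higher at day 7, where Msln had the highest mean (19.7 percent of all spots). At day 28, 1 passed as lower, where Msln had the lowest mean (15.4 percent of all spots). Whether mesothelium had a part in the Krt7 ratios was not tested.

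**Figure D3:**
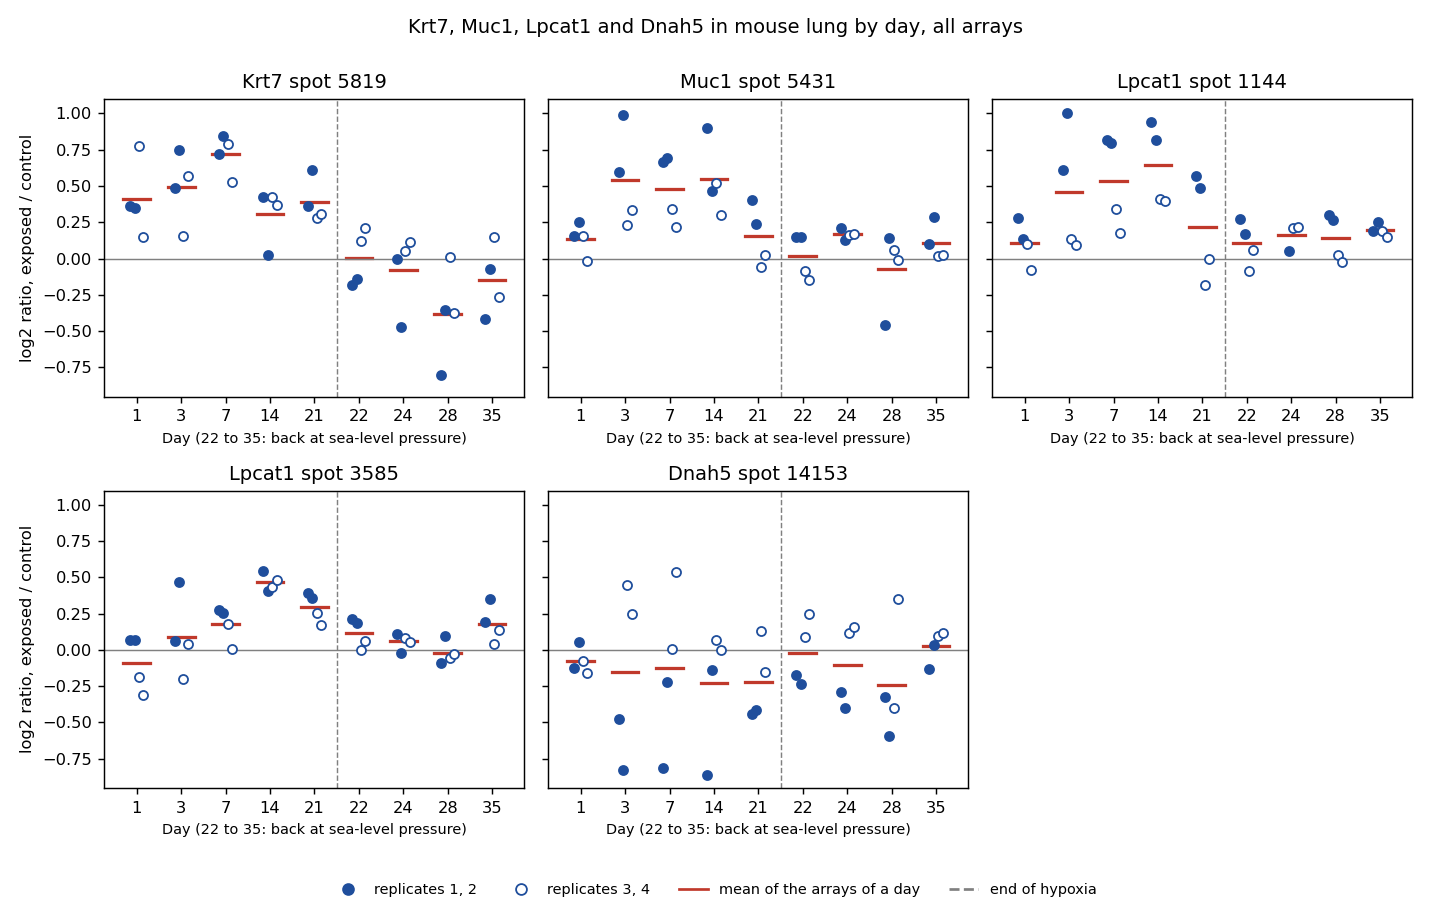
Log2 ratio (exposed over control, y axis) of Krt7, Muc1, the 2 Lpcat1 spots and Dnah5 by day (x axis), with a point for each array (filled, replicates 1 and 2; open, replicates 3 and 4), a red line at the mean of each day and a dashed line at the end of hypoxia. Krt7 lies above 0 on all 20 hypoxia arrays, Muc1 and Lpcat1 spot 1144 are highest between days 3 and 14, and the Dnah5 points part by replicate pair.

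Lpcat1 was higher in the course of the hypoxia phase on both of its spots. Spot 1144 had 0.61, 1.00, 0.14 and 0.10 at day 3, 0.82, 0.80, 0.34 and 0.17 at day 7, and 0.94, 0.82, 0.41 and 0.39 at day 14. On each of these days replicates 1 and 2 lay above replicates 3 and 4. The means were 0.46 ± 0.43, 0.53 ± 0.33 and 0.64 ± 0.28 (SD, n = 4 each; limma adjusted p = 0.0067, 0.0011 and 0.00024), and the day 3 call was lost without replicate 2 (0.28, adjusted p = 0.17). At day 21 arrays 1 and 2 averaged 0.53 and arrays 3 and 4 averaged -0.09.

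Spot 3585 of Lpcat1 passed as higher later, at days 14 and 21, and its day 14 mean was smaller than that of spot 1144. Its values were 0.54, 0.41, 0.43 and 0.48 at day 14, with a mean of 0.46 ± 0.06 (SD, n = 4; limma adjusted p = 1.5e-05). At day 21 they were 0.39, 0.36, 0.25 and 0.17, with a mean of 0.29 ± 0.10 (SD, n = 4; limma adjusted p = 0.015), a call that was lost without replicate 1, 3 or 4 (adjusted p up to 0.20). At day 1 its mean was -0.09, against 0.11 on spot 1144, and neither passed.

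Over hypoxia the 2 Lpcat1 spots averaged 0.39 ± 0.22 (limma adjusted p = 0.0010) and 0.19 ± 0.21 (limma adjusted p = 0.037; SD over time points, n = 5 each). Spot 1144 averaged 0.65 in replicates 1 and 2 and 0.14 in replicates 3 and 4, where it did not pass (adjusted p = 0.10), and it passed in 21 of 22 other settings. Spot 3585 passed in 12 of 23, and leaving out replicate 1 gave 0.16 (adjusted p = 0.066) and replicate 2 gave 0.15 (adjusted p = 0.13). In recovery the spots averaged 0.15 ± 0.04 (adjusted p = 0.19) and 0.08 ± 0.08 (adjusted p = 0.46; SD over time points, n = 4 each).

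The 3 spots of Slc34a2 gave different answers. Spot 9945 was far below control in the first week, with -1.68, -1.84, -1.76 and -1.75 at day 1, -1.94, -1.55, -1.79 and -1.37 at day 3, and -2.56, -2.70, -2.34 and -2.53 at day 7. It then lay nearer control, with -1.26, -1.06, -1.38 and -1.12 at day 14 and -1.16, -0.51, -0.53 and -1.19 at day 21. All 20 hypoxia arrays were below 0, and those of days 1, 3 and 7 lay below those of days 14 and 21, apart from 1 array of day 3 (-1.37) that lay next to 1 of day 14 (-1.38). Among all spots with a mean, it ranked 1 from the lowest at day 1 and 2 from the lowest at days 3 and 7.

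In recovery, spot 9945 had -0.52, -0.32, 0.04 and -1.15 at day 22, -0.92, -1.44, -0.70 and -0.69 at day 24, -3.98, -1.96, -1.52 and -2.16 at day 28, and -0.80, -0.64, -0.21 and -0.41 at day 35. Day 28 lay below every other recovery array, at a mean of -2.40 ± 1.09 (SD, n = 4; limma adjusted p = 7.7e-10), with replicate 1 far below the other arrays. Days 22 and 35, at -0.49 and -0.52, did not pass (adjusted p = 0.41 and 0.31). Day 24 passed, at -0.94 ± 0.35 (SD, n = 4; limma adjusted p = 0.0095), and was lost without replicate 2 (-0.77, adjusted p = 0.24) or 4 (adjusted p = 0.052). The hypoxia days passed with limma adjusted p from 7.2e-11 at day 7 to 0.015 at day 21, and day 21 did not without replicate 2 (-0.96, adjusted p = 0.051) or 4 (-0.73, adjusted p = 0.22).

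Over hypoxia Slc34a2 spot 9945 averaged -1.60 ± 0.64, 0.330 of control (SD over time points, n = 5; limma adjusted p = 0.000815), with -1.62 in replicates 1 and 2 and -1.58 in replicates 3 and 4. In recovery it averaged -1.09 ± 0.90 (SD over time points, n = 4; limma adjusted p = 0.049), the 1 member spot that passed in that phase. Without day 28 the recovery mean was -0.65 (adjusted p = 0.22), and the call held in 10 of 23 other settings. The difference between the phases was -0.51 ± 0.39 (SE; adjusted p = 0.53).

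Spot 13139 of Slc34a2 was lower over the first week by a smaller amount. Its values were -0.54, -0.33, -0.53 and -0.60 at day 1, -0.60, -0.42, -0.54 and -0.29 at day 3, and -0.45, -0.61, -0.42 and -0.49 at day 7. The daily means of -0.50 ± 0.12, -0.46 ± 0.13 and -0.49 ± 0.08 (SD, n = 4 each) passed, with limma adjusted p of 2.3e-06, 8.1e-06 and 1.1e-06. At day 14 the mean was 0.01 ± 0.16 (SD, n = 4), and at day 28 it was -0.30 ± 0.16 (SD, n = 4; limma adjusted p = 0.00087; -0.22 with adjusted p = 0.064 without replicate 1). Over hypoxia the spot averaged -0.31 ± 0.24, 0.805 of control (SD over time points, n = 5; limma adjusted p = 0.0077), a call that held in 22 of 22 other settings, and in recovery it averaged -0.10 ± 0.17 (SD over time points, n = 4; adjusted p = 0.45).

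Spot 309 of Slc34a2 was called lower on no day. It averaged 0.10 ± 0.20 over hypoxia (SD over time points, n = 5; adjusted p = 0.22) and 0.13 ± 0.08 in recovery (SD over time points, n = 4; adjusted p = 0.25), with daily means from -0.07 to 0.44. Day 14 passed as higher with values of 0.04, 0.08, 0.74 and 0.89 (mean 0.44 ± 0.44, SD, n = 4; limma adjusted p = 0.025), and did not without replicate 3 (0.34, adjusted p = 0.18) or 4 (0.29, adjusted p = 0.24). The hypoxia mean was -0.13 in replicates 1 and 2 and 0.34 in replicates 3 and 4 (adjusted p = 0.0065), and in recovery it was -0.09 and 0.34 in these pairs.

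**Figure D4:**
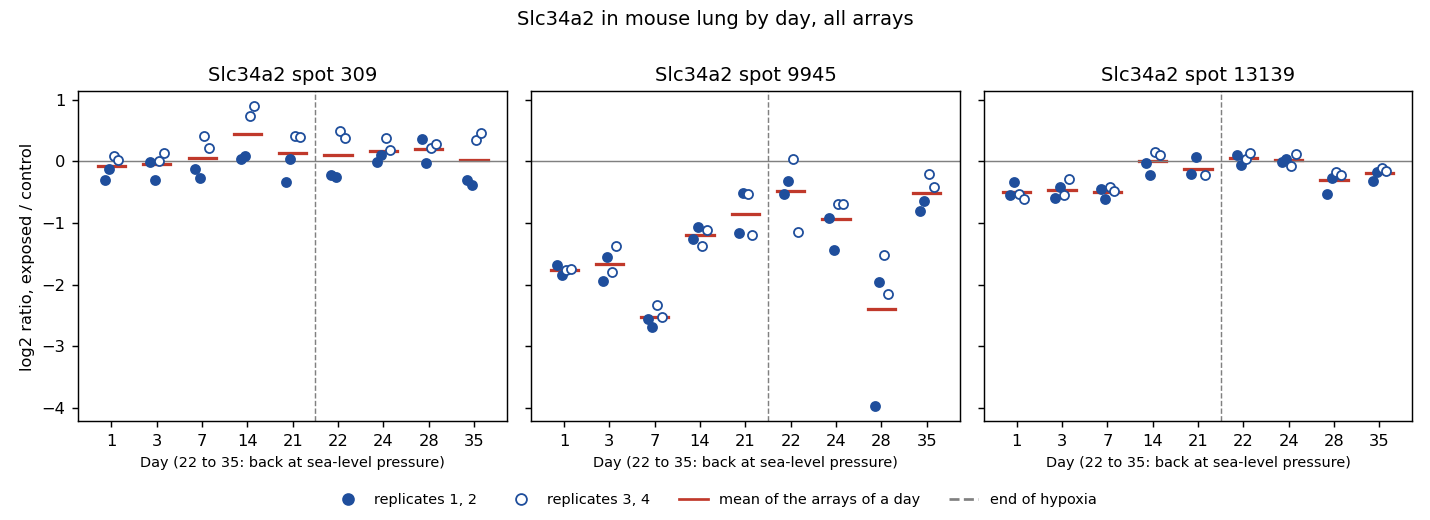
Log2 ratio (exposed over control, y axis) of the 3 Slc34a2 spots by day (x axis), with a point for each array (filled, replicates 1 and 2; open, replicates 3 and 4), a red line at the mean of each day and a dashed line at the end of hypoxia. Spot 9945 is lowest at days 7 and 28 (-2.53 and -2.40), spot 13139 is also below 0 on these days (-0.49 and -0.30), and spot 309 stays between -0.39 and 0.89.

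Set side by side, Slc34a2 spot 309 was above spot 9945 on 36 of 36 arrays, by a median of 1.52 on the log2 scale. Over the 9 daily means, spots 9945 and 13139 had a Pearson r of 0.75, spots 309 and 13139 of 0.64, and spots 309 and 9945 of 0.08. For Agr2 the same measure was 0.97 between spots 298 and 2716, 0.87 between 298 and 10422, and 0.79 between 2716 and 10422. For Lpcat1 it was 0.67. These are descriptions of 9 points that share arrays and hybridisations, and no test was made of the disagreement.

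Dnah5 was the 1 gene of the list whose spot passed at no single day (adjusted p from 0.32 to 1.00). The log2 ratios of spot 14153 at day 3 were -0.47, -0.83, 0.45 and 0.25, and at day 7 they were -0.81, -0.22, 0.01 and 0.54. Replicates 1 and 2 were below 0 and replicates 3 and 4 above it on both days. Over hypoxia it averaged -0.16 ± 0.07, 0.895 of control (SD over time points, n = 5; limma adjusted p = 0.014), since the daily means were alike, from -0.23 to -0.07. Its direction turned with the pair: arrays 1 and 2 averaged -0.43 and arrays 3 and 4 averaged 0.10 (adjusted p = 0.20), and the call was lost without replicate 1 (-0.03, adjusted p = 0.62) or replicate 2 (-0.11, adjusted p = 0.097). In recovery it averaged -0.08 ± 0.12 (SD over time points, n = 4; adjusted p = 0.27), with arrays 1 and 2 at -0.26 and arrays 3 and 4 at 0.10.

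Among spots of different genes, the closest time courses over the 9 daily means were those of Muc1 and Lpcat1 spot 1144, with a Pearson r of 0.93. Muc1 and Krt7 had an r of 0.75, and Krt7 and Lpcat1 spot 1144 of 0.61. Agr2 spot 298 had an r of -0.02 with Muc1, and Agr2 spot 10422 had an r of -0.77 with Lpcat1 spot 3585. Agr2 was highest at day 1, Muc1 and Lpcat1 spot 1144 at days 3 to 14, and Krt7 was above control through the whole phase. Each r describes 9 points with shared arrays.

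The spots of other genes with the most similar daily means were sought among 9023 to 9025 spots with a named gene. Each r below was picked as among the highest of that many, over few daily means. A search of this size can give high r values for unrelated spots, and no chance level was computed. The names below therefore only list the nearest spots, and shared regulation was not tested. Agr2 spot 298 was most like Tmed2, a cargo receptor of vesicles from the endoplasmic reticulum (r = 0.92), Tlcd4 (r = 0.92) and the gut galectin Lgals4 (r = 0.90). Agr2 spot 2716 was most like the calcium-binding S100a6, the sterol synthesis enzyme Sqle and the galectin Lgals1 (r = 0.93 for each), and spot 10422 like Yipf5, a protein of the early secretory pathway (r = 0.96), Eif1ax (r = 0.95) and Thyn1 (r = 0.90). Muc1 was most like the histone methyltransferase Ehmt2 (r = 0.98), Osbpl7 and Rcc2 (r = 0.97 for each). Krt7 was most like the tubulin-folding cofactor Tbcb, the phosphofructokinase Pfkl (r = 0.97 for each) and the cyclin Ccnd3 (r = 0.97).

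Lpcat1 spot 1144 was most like Trp53bp1, Zmynd8 and Npepl1 (r = 0.98, 0.98 and 0.97), and spot 3585 like the stress-induced pseudokinase Trib3 (r = 0.96), Bik and Mus81 (r = 0.93 for each). Slc34a2 spot 9945 was most like Sft2d2 (r = 0.99), the cap-binding Ncbp2 and Anapc4 (r = 0.98 for each), whose own hypoxia means were -0.66, -0.41 and -0.60. Spot 13139 was most like Echdc1, Hp1bp3 and Ces1f (r = 0.97, 0.96 and 0.95), and spot 309 like Matn2, Car14 and Guk1 (r = 0.97, 0.94 and 0.94). Dnah5 was most like Wdr43, Fosl2 and Strada (r = 0.93, 0.92 and 0.91). No 2 spots of a gene shared a nearest gene. These r values, too, were picked as the highest in the search, with no chance level computed.

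To place the 6 genes among other epithelial genes, 5 lists holding 197 further genes were counted, of which 70 had a spot with 1 symbol. Like the 6 genes, the lists were chosen with earlier results of these data known. Over hypoxia, 14 of their 105 tested spots were higher and 32 lower, with a median of -0.04, against 23.6 and 19.3 percent of all spots and a median of 0.02. At day 1 the lists had 5 spots higher and 24 lower of 107, with a median of -0.12, where 10.6 percent of all spots were higher and 9.98 percent lower. At day 28 they had 15 higher and 33 lower of 106, against 18.8 and 15.4 percent of all spots. In recovery as a whole 1 was higher and 5 were lower of 105.

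In the airway secretory list, 1 of 6 spots was higher and 3 lower over hypoxia, from 5 measured genes of 30. The goblet cell transcription factor Spdef was higher at 0.14 ± 0.03 (limma adjusted p = 0.036). Fcgbp, a mucus protein, was lower at -0.70 ± 0.29, the retinal dehydrogenase Aldh1a1 at -0.45 ± 0.05 and the club cell carbonyl reductase Cbr2 at -0.29 ± 0.18 on 1 of its 2 spots (SD over time points, n = 5 each; limma adjusted p = 0.00031, 0.00017 and 0.041). In the ciliated cell list 5 of 26 spots were higher and 7 lower. Tekt2, a tektin of the axoneme, was at 0.30 ± 0.15, the radial spoke protein Rsph9 at 0.26 ± 0.12 and the adenylate kinase Ak8 at 0.21 ± 0.10. Ttc12, a dynein assembly factor, was at -1.06 ± 0.53, the intraflagellar transport protein Ift81 at -0.19 ± 0.06 and Ak7 at -0.18 ± 0.05 (SD over time points, n = 5 each; limma adjusted p from 0.00047 to 0.0090 for these 6). The 2 pairs of arrays averaged 0.49 and 0.07 for Tekt2, 0.44 and 0.10 for Rsph9, and -1.44 and -0.68 for Ttc12.

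In the alveolar type II and surfactant list, 1 of 28 spots was higher and 8 lower. The syndecan gene Sdc1 was higher at 0.27 ± 0.11 on 1 of 2 spots, and Cept1 and Pcyt1a, enzymes of phosphatidylcholine synthesis, were lower, Cept1 at -0.79 ± 0.26 and -0.50 ± 0.12 on 2 spots and Pcyt1a at -0.25 ± 0.04 (SD over time points, n = 5 each; limma adjusted p from 0.00031 to 0.0011). The other Sdc1 spot was at 0.02 (adjusted p = 0.86), and the other Pcyt1a spots were at -0.48 (limma adjusted p = 0.00096) and 0.02 (adjusted p = 0.76). Sftpd, a surfactant protein, and Abca3, the lipid transporter of lamellar bodies, both chosen after their values were seen, were at 0.03 each (adjusted p = 0.76 for both). Lpcat1, which acts on the same lipid, was higher over the same days. In the alveolar type I list, 1 of 8 spots was higher and 4 lower, with the matrix proteoglycan gene Spock2 at 0.53 ± 0.20, Timp3, an inhibitor of metalloproteinases, at -0.38 ± 0.18 on 1 of 2 spots and Lmo7 at -0.27 ± 0.11 and -0.25 ± 0.06 (SD over time points, n = 5 each; limma adjusted p from 0.00029 to 0.0048). The other Timp3 spot was at -0.09 (adjusted p = 0.50), and at day 1 it was higher, at 0.41 (limma adjusted p = 0.00017). Over hypoxia, arrays 1 and 2 and arrays 3 and 4 averaged 0.70 and 0.34 for Spock2, and -0.58 and -0.17 for the lower Timp3 spot.

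Among keratins and general epithelial genes, 6 of 37 spots were higher and 10 lower. Those higher included the epithelial transcription factor Elf3 at 0.33 ± 0.16, the tight junction gene Cldn7 at 0.33 ± 0.14 and Jup, which encodes plakoglobin, at 0.27 ± 0.21 (limma adjusted p = 0.00078, 0.0016 and 0.013). Those lower included Ehf, another transcription factor of the same family as Elf3, at -0.55 ± 0.17 and the sodium pump subunit Atp1b1 at -0.40 ± 0.16 and -0.38 ± 0.16 on 2 spots (SD over time points, n = 5 each; limma adjusted p = 0.00023, 0.00069 and 0.00071). The other Atp1b1 spot was at 0.13 (adjusted p = 0.14). At day 1, Elf3 was at 0.42 and this Ehf spot at -0.78, and both passed (limma adjusted p = 4.5e-05 and 1.2e-07), whereas the other Ehf spot, at -0.41, did not (adjusted p = 0.088).

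**Figure D5:**
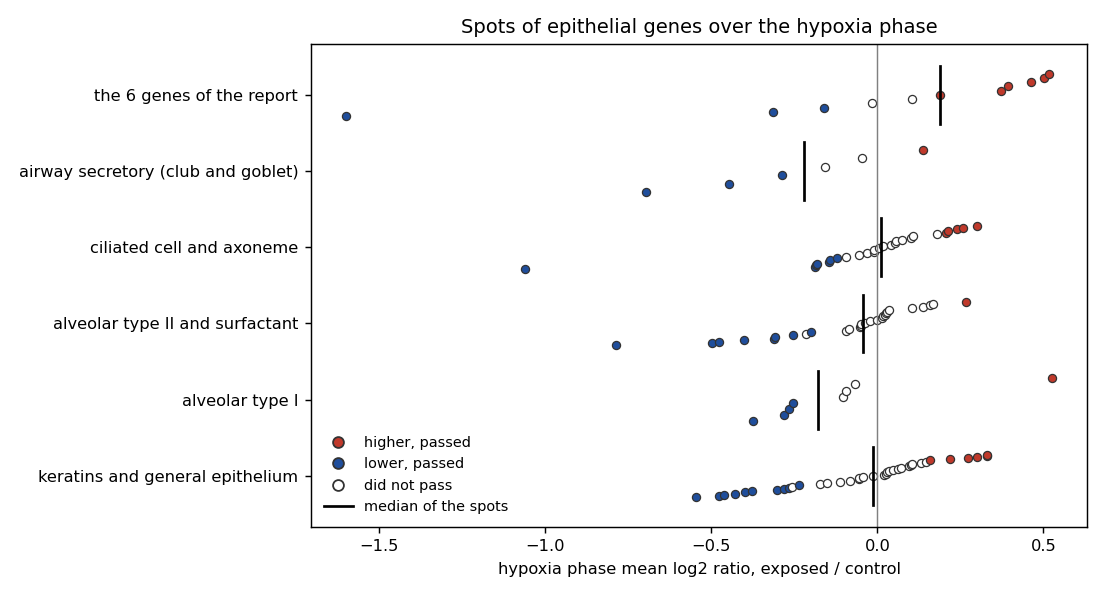
Mean log2 ratio over the hypoxia phase (exposed over control, x axis) of each spot of the 6 genes (top row) and of 5 lists of other epithelial genes (rows below), red where higher and blue where lower at an adjusted p of 0.05 and open where not, with a bar at the median of each row. The median of the 6 genes' spots is 0.19, and those of the lists lie between -0.22 and 0.01. The genes were chosen with earlier results of these data known, so this gap may follow from the choice.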

How the data were processed

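The values are log2 ratios deposited by the authors. Per the labels, the cDNA was made with Superscript II, slides were read with a GenePix 4000A scanner and GenePix Pro 4.0, and the log2 ratios of median intensities were corrected for background, cleared of poor spots and normalised by lowess. They were used as deposited, with missing spots left empty and no averaging of spots. Channel intensities, and with them signal over background, were not analysed here. Precision over arrays is limited by how many there are. The spread between pools of mice could not be measured at a time point, since the labels name no separate ones.

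The platform annotation gave 1 symbol to 9598 of the 15388 spots, several to 514 and none to 5276, and the identifiers of 9510 spots were found in the RefSeq table of GRCm38.p6. All 6 genes matched the RefSeq promoter table.

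All tests were two-sided limma fits (version 3.58.1, functions lmFit and eBayes, R 4.3.3), adjusted over all spots by Benjamini-Hochberg with a threshold of 0.05. Phases were tested on the 9 daily means, fitted with a mean, or a mean and a slope on log2 day, per phase (spots with at least 2 arrays a day). Single days were tested on all 36 arrays, with 1 mean for each day and a shared spread (at least 3 arrays). This fit counts the 4 arrays of a day as independent, although the correlation within replicate pairs was 0.42. With replicate pairs as a random block, 7.36 percent of all spots passed at day 1, against 20.5 percent without it. The fits were run on simulated data in which the noise of each array was independent. Since the simulation held no likeness within replicate pairs, it cannot show how the single-day tests behave under it.

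All spots of the 6 genes are named, with up to 3 spots in each direction with the lowest p past the threshold over hypoxia from each epithelial list, and for each spot the 3 most correlated spots of other genes. The members, the lists and the tests were chosen with earlier results of these data known. Alternatives were median centring, a common array spread, other limits on missing values, each replicate pair alone, each replicate number or day left out, daily medians, each phase fitted alone, replicate number as a block and replicate pairs as a random block.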

Additional observations from a re-analysis of the deposited data

Results flagged for a closer look

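Of 116 groups of arrays or daily means of the 11 spots that were checked for a value far from the others, 1 had such a value, and chance marks about 1 in 20 groups. It was replicate 2 of day 14 on Krt7 spot 5819, at a log2 ratio of 0.0234, whereas the other arrays of that day lay between 0.37 and 0.42. The gap to the nearest array was 0.86 of the range of the group.

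Agr2 spot 10422 moved in opposite directions at days 1 and 7: all 4 arrays of day 1 were above 0 and all 4 of day 7 below it. The day 1 mean minus the day 7 mean was 1.07 on the log2 scale, and this difference was not tested.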

How the results depend on the processing

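The count of spots called over hypoxia (9 of 11) ranged from 7 to 9 without each replicate and from 6 to 9 without each day, and was 5 where values were needed on all 4 arrays, which left 7 of the spots to test. For recovery (1 of 11) it was 0 with arrays centred on their medians, with 1 array a day allowed, with daily medians and with each phase fitted alone, 2 with a common array spread and 2 in replicates 3 and 4 alone, and 0 to 1 without each replicate or day. For hypoxia minus recovery (0 of 11) it was 1 with a common array spread, with values on all 4 arrays, in replicates 1 and 2 alone and without replicate 1 of day 28 (chosen after seeing the data), and 0 to 1 without each replicate or day; that spot was Krt7 each time. For slopes (1 of 22) it was 0 with median centring, with a common array spread, with values on all 4 arrays and in each replicate pair alone, and 0 to 1 without each replicate or day. With replicate number as a block, which counts the 36 arrays with the day as a random block, 3 spots passed for the difference (Krt7, 0.62; Muc1, 0.32; Agr2 spot 2716, 0.45) and 3 slopes passed, those of the Agr2 spots. Deviations of same-numbered arrays from the daily means correlated above 0.1 in 129 of 144 pairs (median 0.37, lowest -0.11) and 15 of 36 arrays correlated best with their own number; since some pairs did not, and the labels tie no number to a shared source, the numbers were not used as a pairing. The 32 single-day calls became 36 with that block, 23 with replicate pairs as a random block, 35 in replicates 1 and 2 alone, 31 in replicates 3 and 4 alone and 26 to 28 without each replicate. In replicates 3 and 4 alone the hypoxia means of Agr2 spot 10422 (0.34) and Dnah5 (0.10) turned positive. The cause of these changes was not tested. Signal over background was not analysed here.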
